A study of Mus musculus with 14 samples.

Results

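The comparison described here set the transcriptome of V1 interneurons of the embryonic mouse spinal cord against those of V2a and V3 interneurons. It used 3 of the 14 RNA-seq samples of a study of microRNA-218 in motoneurons, 1 library for each interneuron type. The V1 cells came from En1:cre;Rosa26:LSL:tdTomato embryos, the V2a cells from Chx10:cre;Rosa26:LSL:tdTomato embryos and the V3 cells from Sim1:cre;Rosa26:LSL:tdTomato embryos. All were wild type for microRNA-218, were taken at E12.5 and were sorted for tdTomato. The Cre driver marks each cell that once expressed the driver gene together with its descendants, so a population is defined by its history and not by its state at sorting. How many embryos went into each library and which axial level was dissected are not given in the labels. For context, 6 libraries of GFP-sorted motoneurons from wild-type Hb9::gfp embryos of the same day were used, with 2 libraries from mouse embryonic stem cells at day 4 of differentiation. Of the latter, one held sorted motoneuron progenitors (Olig2:cre;Rosa26:LSL:tdTomato, named mES pMN below) and the other unsorted neural progenitors (mES NP). The 2 libraries of motoneurons without microRNA-218 were not compared, and 1 floor plate sample was not analysed here.

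V1 interneurons arise from Pax6- and Dbx-defined progenitors of the ventral spinal cord, switch on the homeobox gene En1 when they leave the cell cycle, and mature into inhibitory premotor neurons that include Renshaw cells and reciprocal Ia inhibitory neurons. V2a interneurons, which express Lhx3 and Shox2, and V3 interneurons, which express Sim1, are excitatory and release glutamate. Inhibitory neurons make GABA with the glutamate decarboxylases, load GABA and glycine into vesicles with Slc32a1 and take glycine back up with Slc6a5, whereas spinal excitatory neurons load glutamate with Slc17a6.

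The values are the deposited signal of each gene, a read signal scaled for transcript length and between libraries, and differences are on the scale of log2(signal + 1), which understates those of low genes. A gene was called V1-enriched or V1-depleted when the V1 value differed from both others in one direction by at least 2-fold and the higher value was at least 10. For depleted genes both the V2a and the V3 value had to reach 10. Where only the highest of the 3 values had to, 711 entries were V1-depleted. A low gene could therefore be called V1-enriched through the V1 value alone, whereas a depleted call needed 10 in both other libraries. Of 13869 gene entries with a signal of at least 10 in V1, V2a or V3, 477 were V1-enriched (3.44%) and 558 were V1-depleted (4.02%), as the plot of both differences shows. By the same rule V3 had 702 V3-enriched (5.06%) and 270 V3-depleted entries (1.95%), and V2a had 163 (1.18%) and 147 (1.06%). In pairs, 755 entries were higher (5.44%) and 774 lower (5.58%) in V1 than in V2a, 939 were higher (6.77%) and 1426 lower (10.3%) in V1 than in V3, and 478 were higher (3.45%) and 946 lower (6.82%) in V2a than in V3. With 1 library a type there is no replicate and no test, so each difference is one between libraries. The 6 wild-type motoneuron libraries give a measure of spread at this stage. Of the 13869 entries, 12616 had a mean motoneuron signal of at least 10. Over these the median SD of log2 signal was 0.22, and 16.7% ranged over 2-fold or more among those 6 libraries. For the called entries, low ones included, the median SD was larger, at 0.386 for V1-enriched and 0.460 for V1-depleted entries. In bulk samples, fewer cells of a type and less RNA per cell cannot be told apart.

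**Figure D1:**
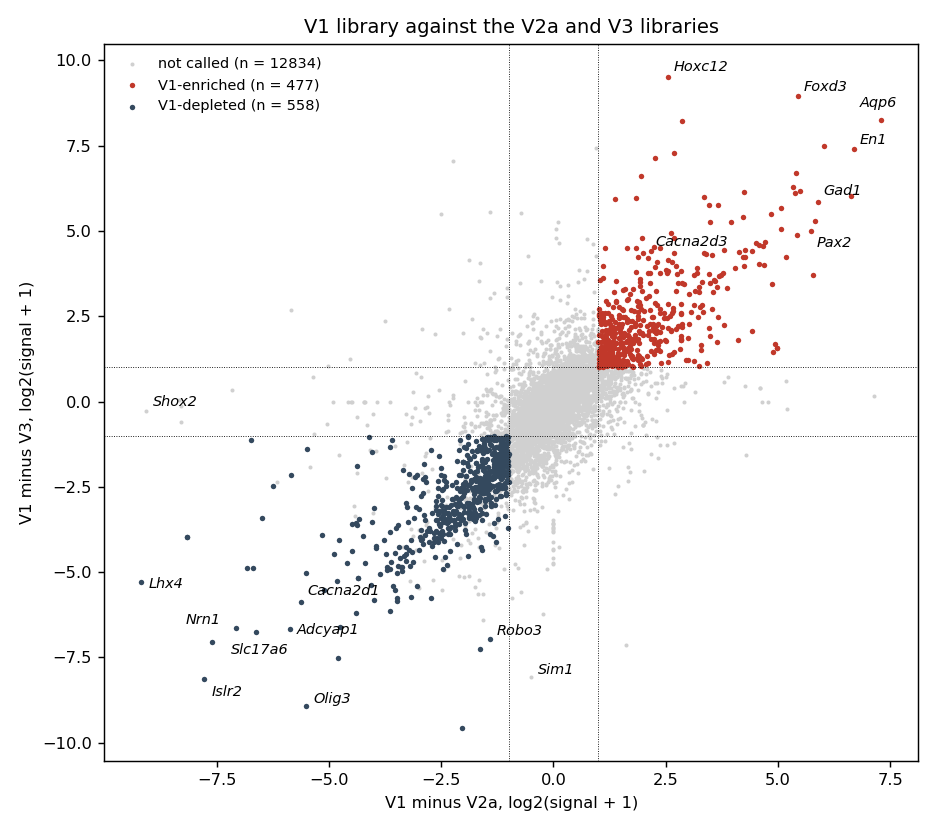
Each point is a gene entry, with the V1 minus V2a difference on the x axis and the V1 minus V3 difference on the y axis, both on the log2(signal + 1) scale. The dotted lines mark 2-fold: the 477 V1-enriched entries lie at the upper right, the 558 V1-depleted entries at the lower left, and Shox2 is low against V2a alone, whereas Sim1 is low against V3 alone.

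The regions upstream of 4 genes that define the V1 library are shown because En1 is its selector gene and Gad1, Gad2 and Slc6a5 carry its inhibitory transmitters. They are the 250 bases before an annotated start in RefSeq (build GRCm38.p6), 5′ to 3′ on the plus strand, on which all 4 genes lie. Capitals mark matches, on either strand, to 5 strings chosen after values had been seen: TAATTA (a homeodomain core), CAGCTG and CAGATG (E-boxes), GTCACGC (core of Pax2, Pax5 and Pax8 sites) and TATAAA. No match overlapped another in these windows.
En1, chr1:120602237-120602486: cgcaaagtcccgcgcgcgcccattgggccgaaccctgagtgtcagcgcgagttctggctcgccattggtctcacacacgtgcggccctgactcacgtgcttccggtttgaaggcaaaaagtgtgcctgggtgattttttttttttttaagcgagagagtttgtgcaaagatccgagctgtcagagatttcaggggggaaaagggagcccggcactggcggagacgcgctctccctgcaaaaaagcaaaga
Slc6a5, chr7:49910049-49910298: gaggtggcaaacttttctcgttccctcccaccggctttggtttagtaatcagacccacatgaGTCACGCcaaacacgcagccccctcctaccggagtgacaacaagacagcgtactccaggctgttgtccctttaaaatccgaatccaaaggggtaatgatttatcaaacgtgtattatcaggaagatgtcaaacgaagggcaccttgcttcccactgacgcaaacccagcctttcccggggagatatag
Gad1, chr2:70561879-70562128: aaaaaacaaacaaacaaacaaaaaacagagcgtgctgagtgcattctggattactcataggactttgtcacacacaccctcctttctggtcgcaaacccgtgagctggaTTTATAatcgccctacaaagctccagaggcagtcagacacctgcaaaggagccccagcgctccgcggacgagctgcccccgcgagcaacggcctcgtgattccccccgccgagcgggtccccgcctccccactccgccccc
Gad2, chr2:22622077-22622326: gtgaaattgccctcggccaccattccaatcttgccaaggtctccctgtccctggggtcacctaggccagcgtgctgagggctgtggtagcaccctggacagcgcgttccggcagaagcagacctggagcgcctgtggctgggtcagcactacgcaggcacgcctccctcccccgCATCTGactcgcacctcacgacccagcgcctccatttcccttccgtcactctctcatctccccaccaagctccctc
The En1 window holds none of the 5 strings. That of Slc6a5 has GTCACGC at positions 63 to 69, counted from the 5′ end, a string found in 2.37% of 20186 upstream windows of the same length and in 3.18% of the 440 windows of V1-enriched genes. Gad1 has TTTATA, the reverse complement of TATAAA, at positions 110 to 115 (11.3% of all windows, 8.86% of V1-enriched). Gad2 has CATCTG, the reverse complement of CAGATG, at positions 175 to 180 (12.4% of all windows, 13.0% of V1-enriched). TAATTA lay in 4.23% of all windows and 4.32% of V1-enriched ones, and CAGCTG in 12.6% and 15.2%. These are matches of letters and not shown to be binding sites. Slc6a5 has a second annotated start whose window, chr7:49911450-49911699, is not printed: it holds CATCTG at positions 160 to 165 and no GTCACGC. The Slc6a5, Gad1 and Gad2 windows precede a start that lies inside the annotated span of the gene, which has a further start upstream.

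The markers of the 3 types were high where the labels place them. En1, on chromosome 1 (120602487 to 120607991), had a signal of 851 in V1, 7.23 in V2a and 4.05 in V3. Sim1 had 1.995 in V1, 3.25 in V2a and 808 in V3. Further defining genes followed the same order: Lhx3 and Shox2, V2a transcription factors, stood at 3293 and 3975 in V2a and below 10 in both other libraries, and Nkx2-2, a V3 progenitor factor, stood at 2.75 in V1, 14.3 in V2a and 2858 in V3. Motoneuron genes were low in the V1 library, with Mnx1 at 0.775 against 2194 to 3995 in the 6 wild-type motoneuron libraries, and Isl1 at 9.83 against 1593 to 2323. Chat, the enzyme of acetylcholine synthesis, was 8.44 in V1 and 13.9 in V3 but 309 in V2a, close to the motoneuron range of 339 to 500.

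Depth as estimated from the steps between low values was similar, at about 16.4 M reads for V1, 17.7 M for V2a and 16.7 M for V3, so that 3 reads in a transcript of 2000 bases correspond to a signal of 1.70, 1.63 and 1.73. The libraries differed in markers of other cells, which the plot of summed marker lists shows. Blood markers, mostly globins, summed to 246 in V1, 16465 in V2a and 1241 in V3 (9.93 to 1778 in wild-type motoneurons), and 4 of their 11 entries were at 0 in V1. The 8 endothelial markers summed to 16.7, 185 and 127 (5.19 to 71.4), with Cdh5 and Tie1 at 0 in V1. The 13 markers of mesenchyme, meninges and somite summed to 40.9, 257 and 1211 (17.7 to 226), with Myod1 and Myf5 at 0 in V1. The V1 library was thus within the motoneuron range for all 3 lists, and the V2a and V3 libraries were above it for 5 of the 6 sums, the exception being blood markers in V3. Microglia and macrophage markers summed to 16.7, 30.2 and 53.7, within the motoneuron range of 4.67 to 221, and the 8 skin markers did not reach 10 in any of the 3 libraries. The part of these cells in the calls below was not tested.

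**Figure D2:**
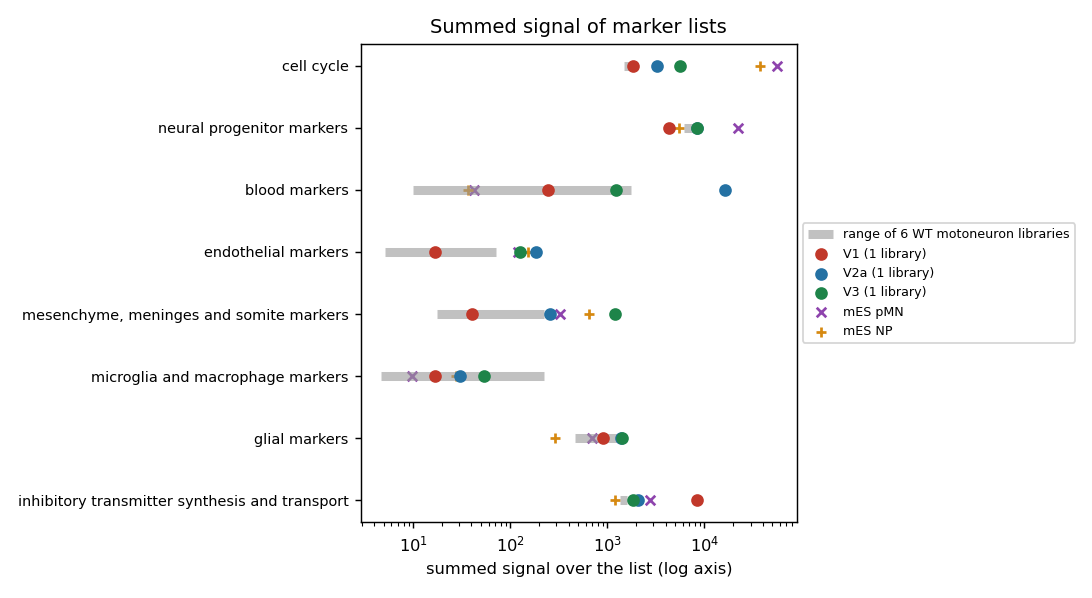
Summed signal (log axis) over marker lists in the V1, V2a and V3 libraries, the 2 stem cell libraries and, as a grey bar, the range of 6 wild-type motoneuron libraries. V1 lies inside the motoneuron range for blood, endothelial and mesenchyme markers and at 8341 for inhibitory transmission, above its range of 1359 to 1617.

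Transcription factors of the V1 lineage were among the genes with the largest differences. Of 26 V1 factors, 12 were V1-enriched and 1, Zfhx4, was V1-depleted. Their median difference between V1 and the mean of the other libraries was 2.02 on the log2 scale, against -0.01 over all 13869 entries. En1 differed by 6.69 from V2a and 7.40 from V3. Pax2, a paired-box factor of inhibitory spinal neurons on chromosome 19 (44746601 to 44838269), was 3864 in V1, 71.4 in V2a and 120 in V3 (differences 5.74 and 5.001). Otp, a homeobox factor, was 1915 in V1, 28.5 in V2a and 9.73 in V3. For En1, Otp and Pax2 no motoneuron library reached the V1 value: their ranges there were 2.73 to 40.9 (median 8.20), 8.04 to 111 (median 22.8) and 14.6 to 130 (median 18.2).

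Markers of V1 subsets were present in the same library. Foxd3, also a neural crest factor, was 1929 in V1, 43.0 in V2a and 2.91 in V3, with 93.0 to 304 in motoneurons (median 186). Foxp2, a forkhead factor of V1 subsets, was 1122, 19.5 and 85.3, with 157 to 354 in motoneurons. Lhx5, a LIM homeobox factor of V1 and dorsal neurons, was 1184, 97.7 and 102. For Foxd3, Foxp2 and Lhx5 too, the 3 interneuron libraries were ordered with V1 highest, and every motoneuron library lay between V1 and the lower interneuron libraries. Foxp1, a factor of limb-innervating motoneurons, was 550 in V1, 106 in V2a and 133 in V3 but 789 to 1439 in motoneurons. It was therefore V1-enriched among interneurons while lying below all 6 motoneuron libraries. Mafa, Lmo3, Foxp4 and Esrrg were V1-enriched too, with nearer differences of 2.24, 1.87, 1.85 and 1.57.

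The other 13 V1 factors were not called, and in several a second interneuron type had as much or more. Sp8 was 159 in V1, 900 in V2a and 2.57 in V3. Prdm8 was 820, 990 and 70.4, and Bhlhe22 was 1108, 995 and 140. All 3 were thus high in V1 and V2a and low in V3. Lhx1 went the other way, at 669 in V1, 161 in V2a and 1007 in V3, and Nr4a2, an orphan nuclear receptor, was 645, 42.8 and 391.7.

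The Pax family was divided. Pax8 was 2314 in V1, 40.2 in V2a and 58.2 in V3, and Pax5 was 204, 9.89 and 1.90, so that all 3 members of the Pax2, Pax5 and Pax8 group were V1-enriched. Pax8 ranged from 6.51 to 69.9 in motoneurons and Pax5 from 0 to 8.75. Pax3 and Pax7, which mark dorsal progenitors, were V1-depleted: Pax3 was 8.69 in V1, 52.2 in V2a and 112 in V3, and Pax7 was 0.528, 19.1 and 43.3. Pax8 was drawn from a list of 14 V0 and dorsal neuron markers, of which Evx1 (36.1, 2.64 and 0.800) and Prrxl1 (37.1, 5.61 and 5.94) were also V1-enriched, and Gsx1, Skor1 and Pou4f1 were V1-depleted (median of the list -0.89).

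Among the 15 entries with the largest V1 enrichment were factors with a less known place in V1 cells. Bhlhe23, a basic helix-loop-helix factor, was 191 in V1, 4.74 in V2a and 2.74 in V3. Sp9, a zinc finger factor, was 681, 15.8 and 7.77. The noncoding entry 5730488B01Rik was 97.2, 0 and 0.498, and it lies inside Pax5 on chromosome 4 (44702800 to 44705110, with Pax5 at 44524748 to 44710694). Reads of the 2 cannot be told apart where they overlap, because the library kit named in the labels does not mark strand. Hist1h4k, a replication-dependent histone whose copies are nearly identical, was 32.6 in V1 and listed at 0 in V2a and V3, and its count is uncertain for that reason.

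The first-ranked gene was neither a transcription factor nor a transmitter gene. Aqp6, an aquaporin known as an intracellular channel of the kidney, was 989 in V1, 5.27 in V2a and 2.23 in V3 (differences 7.30 and 8.26). It was between 1.38 and 7.69 in the 6 motoneuron libraries, with a median of 3.51. Slc30a3, the transporter that loads zinc into synaptic vesicles, was 1241 in V1, 26.6 in V2a and 16.1 in V3, with 2.11 to 50.2 in motoneurons. Both genes were therefore at least 2-fold above every motoneuron library, as were 14 of the first 15 V1-enriched entries, Hist1h4k being the exception.

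**Figure D3:**
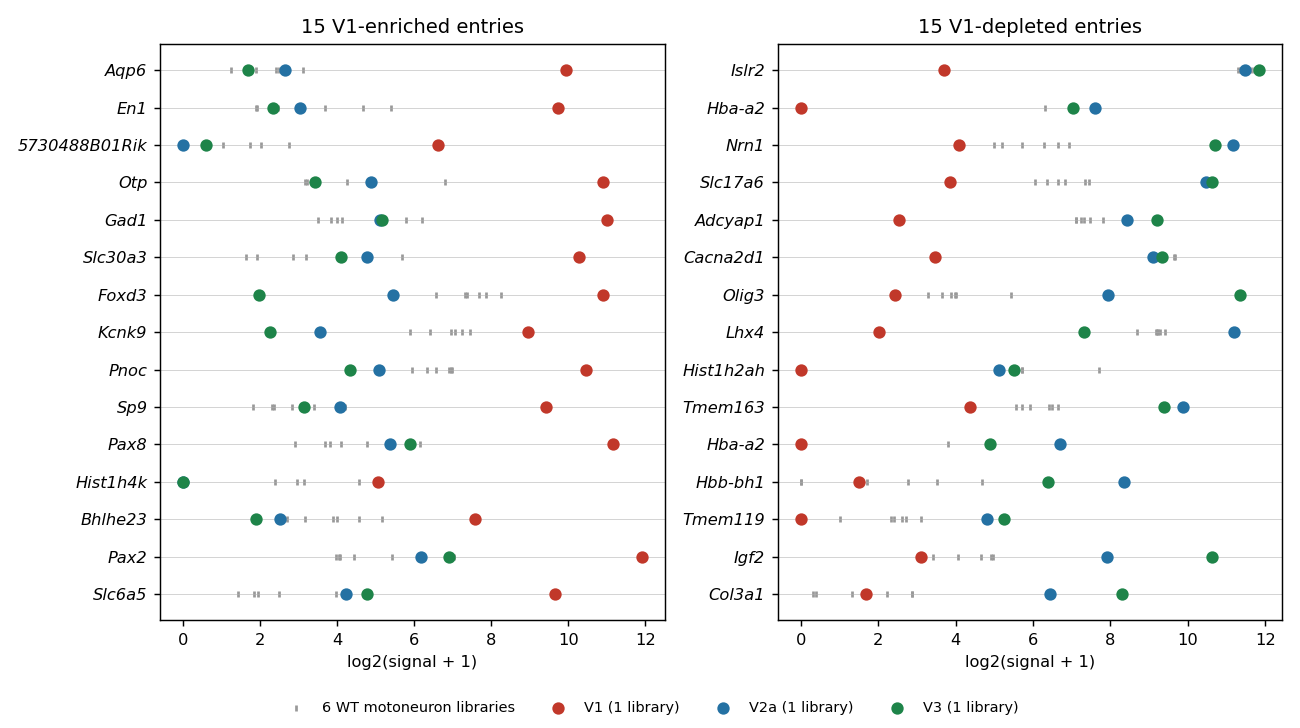
Log2(signal + 1) of the 15 entries with the largest V1 enrichment (left) and V1 depletion (right), ranked by the smaller of the 2 differences. Coloured points are the single V1, V2a and V3 libraries and grey ticks the 6 wild-type motoneuron libraries: En1 stands at 851 in V1 against 4.05 to 7.23, and Islr2 at 12.0 against 2860 and 3686.

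Inhibitory transmission was the group with the highest share of V1-enriched members. Of 9 genes of GABA and glycine synthesis, transport and breakdown with a signal of 10, 6 were V1-enriched and none V1-depleted, with a median difference of 2.38 (all entries -0.01). Gad1, on chromosome 2 (70561303 to 70602014), was 2058 in V1, 33.6 in V2a and 34.9 in V3. Gad2, the second glutamate decarboxylase (chromosome 2, 22621015 to 22693877), was 818, 33.4 and 49.5. In motoneurons Gad1 ranged from 10.4 to 73.4 and Gad2 from 6.44 to 52.5, levels like those of V2a and V3. Slc32a1, the vesicular transporter of both transmitters, was 1206 in V1, 44.9 in V2a and 46.3 in V3. Slc6a5, the neuronal glycine transporter (chromosome 7, 49906984 to 49963864), was 807, 17.9 and 26.6, with 1.70 to 25.5 in motoneurons. GABA and glycine genes were thus both high in the same library.

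Slc6a11, a plasma membrane GABA transporter, was 86.9 in V1, 22.2 in V2a and 11.3 in V3, with 37.7 to 63.6 in motoneurons. Abat, which breaks GABA down, was 1428 in V1, 890 in V2a and 600 in V3 and was not called, and neither were Slc6a9, the glial glycine transporter, and Shmt2. The mirror pattern was seen for glutamate in a single gene. Slc17a6 was 13.6 in V1, 1427 in V2a and 1581 in V3 (differences -6.61 and -6.76), and 65.8 to 174 in motoneurons (median 106). The other 8 genes of glutamate synthesis and transport were not called, and the median of the list was 0.24.

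None of 18 GABA and glycine receptor subunits was called in either direction (median difference 0.47). In so short a list that is near the shares of all entries (3.44% and 4.02%). Of 23 glutamate receptor subunits, 5 were V1-enriched and none V1-depleted (median 0.65). Grik3, a kainate receptor, was 810 in V1, 68.4 in V2a and 86.1 in V3, with 181 to 331 in motoneurons, and Gria1, an AMPA receptor, was 507, 170 and 197. Grin1, Grm5 and Grm7 had nearer differences of 1.48, 1.59 and 1.82. Grm7, at 40.2 in V1, lay below its motoneuron range of 50.3 to 84.5, whereas Grin1 lay inside its range and Grm5 above it. Motoneuron collaterals are known to excite Renshaw cells through nicotinic receptors. Of 10 acetylcholine receptor genes, 5 were V1-enriched and 1, Chrna4, was V1-depleted (median 1.21). Chrna4 was 723 in V1, 1620 in V2a and 1726 in V3. The summed signal of all 21 listed acetylcholine receptor genes was lowest in V1, at 2454.5 against 2843 in V2a and 3113 in V3. Chrm3, a muscarinic receptor, was 151 in V1, 13.4 in V2a and 6.54 in V3. Chrna2, the nicotinic subunit used to mark Renshaw cells, was low but highest in V1, at 17.3, 0.924 and 0.978. The neighbouring genes Chrna5 and Chrnb4, 16734 bases apart on chromosome 9, were both V1-enriched (112, 49.2 and 29.4, and 49.9, 11.8 and 12.2). Chrm2 was 36.6, 3.73 and 15.3, below its motoneuron range of 62.8 to 110. Chrna5 lay inside its motoneuron range, Chrnb4 just above its range, and Chrna2 and Chrm3 above theirs.

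Neuropeptides and calcium-binding proteins separated the libraries in both directions. Of 18, 6 were V1-enriched and 2 V1-depleted (median 0.50). Sst, the somatostatin precursor, was 2811 in V1, 252 in V2a and 73.0 in V3, with 457 to 1416 in motoneurons (median 1132). Pnoc, the nociceptin precursor, was 1407, 33.0 and 19.2, with 60.9 to 127 in motoneurons. Both precursors were higher in V1 than in any of the motoneuron libraries, by over 2-fold for Pnoc but not for Sst. Npy was 360, 77.7 and 63.3, below its motoneuron range of 517 to 883. Calb1, a calcium-binding protein of Renshaw cells, was 135 in V1, 34.1 in V2a and 0.401 in V3. Cck and Tac1 were V1-enriched at low levels, 14.7 and 22.9 in V1. Adcyap1, the precursor of the peptide PACAP, went the other way at 4.86 in V1, 342 in V2a and 593 in V3 (136 to 225 in motoneurons), as did Cartpt at 33.8, 202 and 417.

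Ion channels gave the longest set of V1-enriched list members. Of 46 potassium channel genes, 15 were V1-enriched and none V1-depleted (median 0.78). Kcna1, Kcna4, Kcnc4, Kcnh1 and Kcnj6 reached a signal of 10 in V1 alone, so they entered the 46 only through the library in which they are high. Such entries also tend to raise the median. Kcnk9, a leak channel of the two-pore family, was 496 in V1, 10.8 in V2a and 3.81 in V3, with 58.5 to 175 in motoneurons (median 128). The other 14 had V1 signals of 14.1 to 146, among them Kcnn2 (146, 33.4 and 30.4), a calcium-activated channel, the delayed rectifier Kcna1 (52.8, 7.75 and 0.769) and Kcnc2 (62.3, 16.5 and 7.24), a fast channel of the Kv3 type. Only 7 of the 15 held with a pseudocount of 10, which damps low values. Kcnab1, Kcnip4 and Kcnc4, a second Kv3 channel, were V1-enriched among interneurons and lower in V1 than in every motoneuron library: Kcnab1 was 33.2 in V1 against 366 to 677 there.

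Auxiliary calcium channel subunits of the alpha2delta family, which traffic the channels to the membrane, replaced one another between libraries. Cacna2d3 was 1543 in V1, 78.8 in V2a and 80.9 in V3, with 63.4 to 118 in motoneurons. Cacna2d1 was 10.1 in V1, 548 in V2a and 647 in V3, with 589 to 818 in motoneurons. The V1 library was thus the only one of these 9 with more Cacna2d3 than Cacna2d1, on signals scaled for length. Cacna2d2 was also V1-enriched (693, 231 and 176). In all, 3 of 28 sodium, calcium and HCN channel genes were V1-enriched and 1 V1-depleted (median 0.07), against 3.44% and 4.02% of all entries.

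Of 31 vesicle release genes, 4 were V1-enriched and none V1-depleted (median 0.34), and 2 of the 4 belong to the SV2 family of vesicle proteins. Sv2b was 179 in V1, 8.68 in V2a and 3.25 in V3, and Sv2c was 595, 33.0 and 27.3. Motoneurons had 31.2 to 54.9 of Sv2b and 467 to 708 of Sv2c, so the V1 value of Sv2c lay inside their range. Syt13 (365, 83.1 and 87.1) and Vamp1 (99.0, 40.8 and 35.5) were the other 2.

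Adhesion molecules connect neurons during circuit assembly. Of 34 cadherins, protocadherins and related proteins, 13 were V1-enriched and 1, Cdh22, was V1-depleted (median 1.21). Nrxn3, a presynaptic adhesion protein, was 936 in V1, 101 in V2a and 67.3 in V3, with 175 to 234 in motoneurons. Cdh8 was 567, 66.9 and 90.9, and Cdh7 was 127, 18.5 and 12.7. Cdh3 and Cdh23 were nearly absent from motoneurons, at most 0.655 and 4.11, and stood at 78.8 and 78.7 in V1. Of the 13, Cdh9 (35.8 in V1 against 136 to 290), Cdh13 (447 against 659 to 1041.5) and Pcdh10 (711 against 815 to 1056) were lower in V1 than in every motoneuron library. Cdh7 lay inside its motoneuron range, and the rest of the 13 lay above theirs. Of 49 axon guidance genes, 2 were V1-enriched and 2 V1-depleted (median 0.06), shares near those of all entries (3.44% and 4.02%). Unc5a, a netrin receptor, was 680, 110 and 162. Robo3, the receptor of commissural axons that lets growth cones cross the midline, was 53.0 in V1, 143 in V2a and 6694 in V3, so it was called V1-depleted chiefly against V3.

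**Figure D4:**
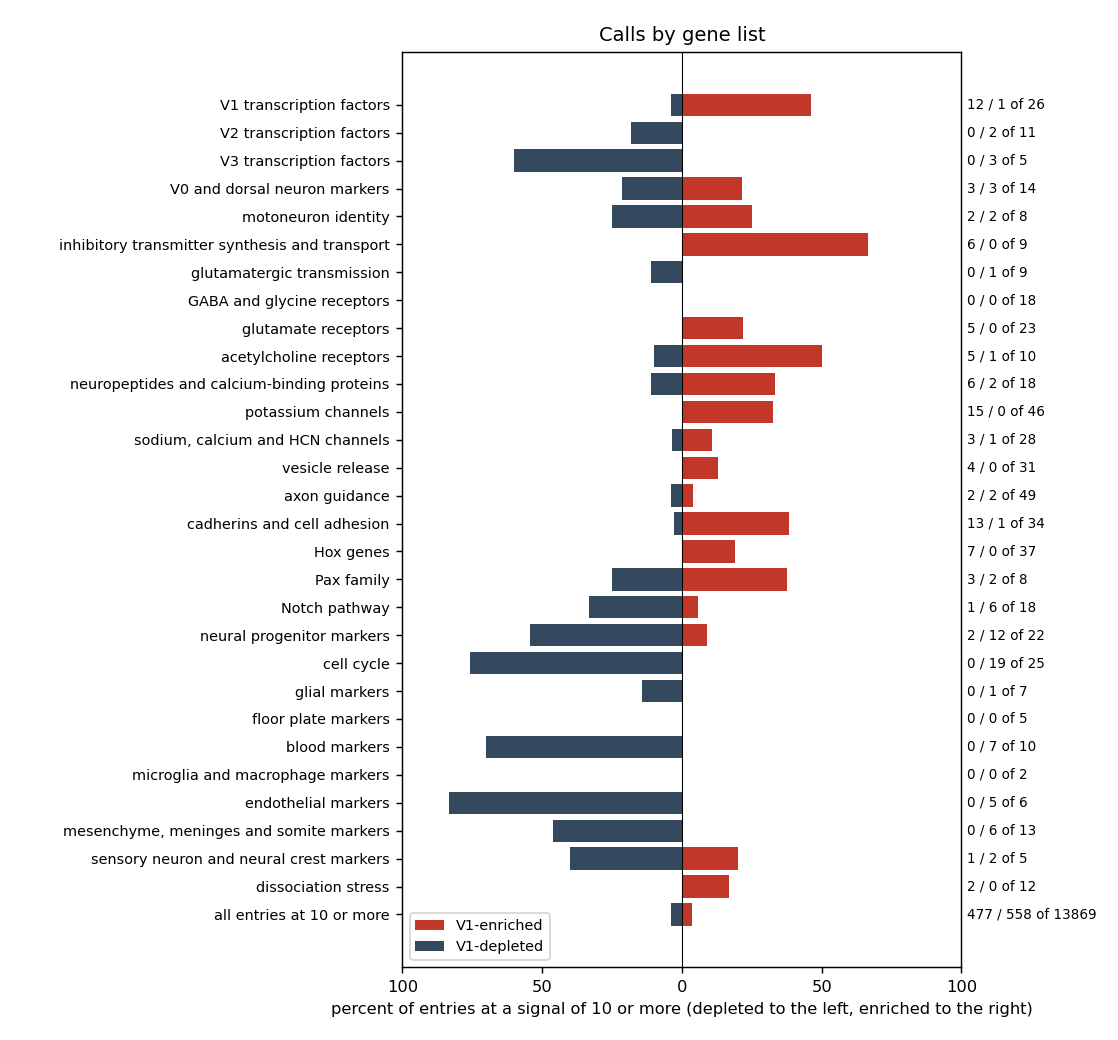
Share of each gene list, among entries with a signal of 10 or more in V1, V2a or V3, that was V1-enriched (right) or V1-depleted (left), with the counts at the right edge. The bottom bar gives all entries (477 and 558 of 13869). Inhibitory transmitter, potassium channel and adhesion lists extend chiefly to the right. Cell cycle, progenitor, blood and endothelial lists extend chiefly to the left.

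Hox genes, which encode position along the body axis, were called mostly at the 5′ ends of the clusters. Of 37, 7 were V1-enriched and none V1-depleted (median 0.09), and 6 of the 7 belong to paralogue groups 11 to 13, which mark the caudal end of the cord. Hoxc12 was 735 in V1, 125 in V2a and listed at 0 in V3. Hoxc13 was 295, 39.7 and 0, and Hoxd12 was 60.6, 22.7 and 0. All 3 thus had V1 highest and V3 at 0. Hoxc11 was 461, 215 and 86.8, and Hoxd11 was 433, 149 and 65.8. Motoneuron libraries varied widely for the same genes, Hoxc12 from 0 to 484 (median 113) and Hoxc11 from 15.01 to 286. Paralogues of middle groups showed no V1 excess: Hoxa9 was 636 in V1, 635 in V2a and 3338 in V3, and Hoxc8 was 1191, 2092 and 1640. Hoxc13, Hoxc12, Hotair and Hoxc11 are neighbours on chromosome 15 (102921131 to 102956701), and Hotair, the noncoding RNA between Hoxc12 and Hoxc11, was 139, 25.9 and 9.32. The axial level of the dissections is not given, and differences of level and of cell type cannot be told apart. Hoxb13 and Hoxd1 lost their call with a pseudocount of 10.

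**Figure D5:**
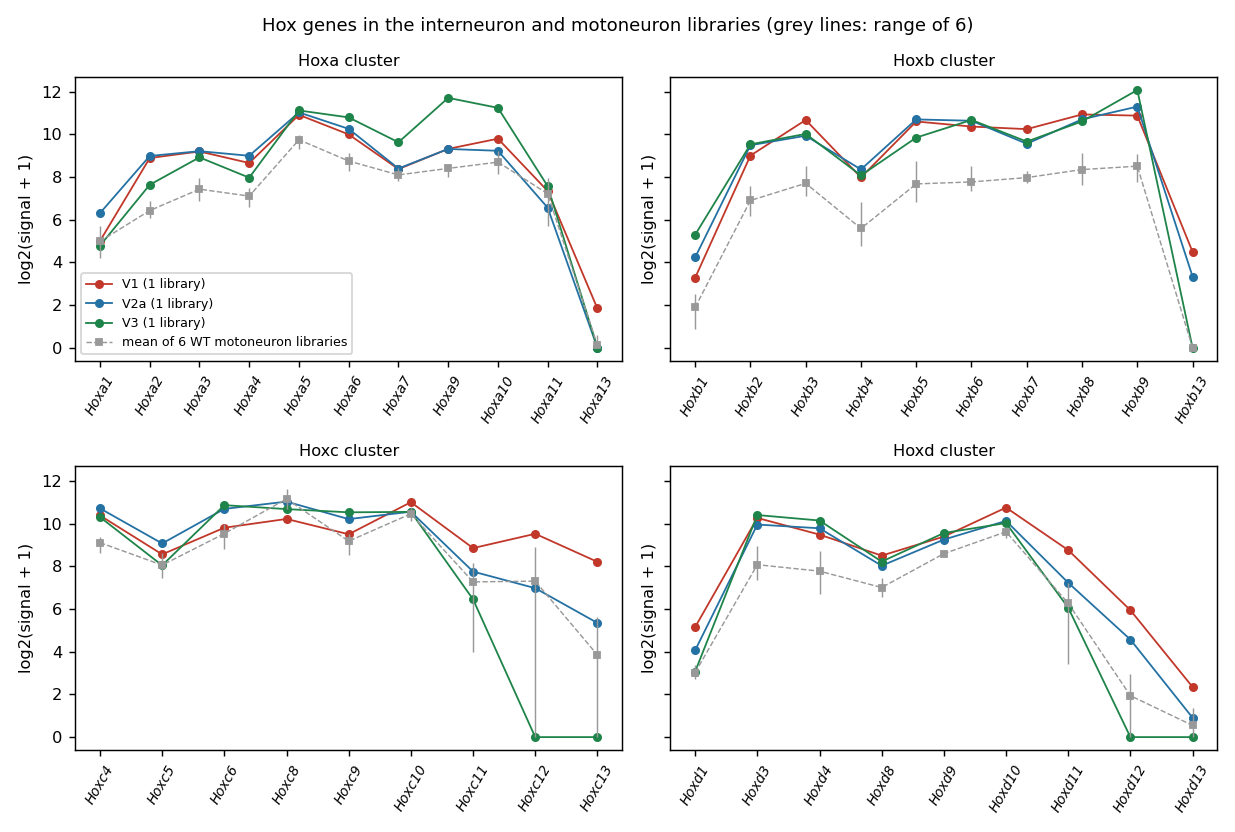
Log2(signal + 1) of Hox genes by cluster, from the 3′ to the 5′ end, in the single V1, V2a and V3 libraries and as the mean of 6 wild-type motoneuron libraries, with grey lines for their range. V1 is highest of the 3 interneuron lines at Hoxc11 to Hoxc13 and Hoxd11 to Hoxd13, and V3 at Hoxa9 and Hoxa10; Hoxc12 stands at 735 in V1, 125 in V2a and 0 in V3.

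The first 15 V1-depleted entries held neuronal genes together with globins, a histone and the mesenchyme gene Col3a1, and 7 of the 15 were at least 2-fold lower in V1 than in every motoneuron library. Islr2, a membrane protein that promotes axon growth, was 12.0 in V1, 2860 in V2a and 3686 in V3. All 6 motoneuron libraries were also high, at 2498 to 3693 (median 2895), so V1 stood apart from the other 8 neuronal libraries. Nrn1, neuritin, was 16.0 in V1, 2278 in V2a and 1677 in V3, with only 30.9 to 121 in motoneurons. Tmem163, which binds zinc, was 19.7, 942 and 671, with 46.2 to 99.95 in motoneurons. Nrn1 and Tmem163 were thus highest in both excitatory interneuron types. Igf2, a growth factor that mesenchyme expresses, was 7.64, 240 and 1570, in the same order as the mesenchyme markers.

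By the rule, transcription factors of V2a and V3 could enter the V1-depleted set only where both types had a signal of at least 10. Of 11 V2 factors, 2 were V1-depleted: Lhx4 was 3.05 in V1, 2340 in V2a and 158 in V3, with 415 to 673 in motoneurons, and Sox21 was 25.6, 1182 and 68.2. Of 5 V3 factors, 3 were V1-depleted, of which Nkx2-2, with 14.3 in V2a, lost its call with a pseudocount of 10. Olig3, which is also a dorsal progenitor factor, was 4.37, 243 and 2618, and Uncx was 12.9, 42.0 and 2142. Medians of the 2 lists were -3.43 and -4.45. Of 8 motoneuron identity genes, Slc18a3, the vesicular acetylcholine transporter (20.1, 1202 and 92.9), and Prph, peripherin (7.02, 74.1 and 163), were V1-depleted, whereas Chodl and Aldh1a2 were V1-enriched at 42.8 and 126 in V1, far below their motoneuron ranges of 571 to 917 and 1958 to 4373.

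Cell cycle genes made up the list with the most V1-depleted members. Of 25, 19 were V1-depleted and none V1-enriched (median -2.59). Top2a, which untangles chromosomes in dividing cells, was 8.87 in V1, 163 in V2a and 413 in V3. Motoneurons had 11.0 to 41.1, and the mES pMN and NP libraries 2296 and 3264. Mki67, a marker of dividing cells, was 5.15, 63.0 and 193, with 2.63 to 17.2 in motoneurons. For both genes V1 was within or below the range of postmitotic motoneurons and V2a and V3 were above it. The order V1, V2a, V3 was also that of the summed list, at 1866, 3227 and 5692 (1477 to 1832 in motoneurons).

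Progenitor and Notch genes had the same direction. Of 22 progenitor markers, 12 were V1-depleted and 2 V1-enriched (median -2.01). Sox2 was 47.8 in V1, 157 in V2a and 277 in V3, with 17.6 to 102 in motoneurons. Nkx6-1, a ventral progenitor factor kept by V2a, V3 and motoneuron lineages, was 8.80, 155 and 550, with 211 to 444 in motoneurons. Of 18 Notch pathway genes, 6 were V1-depleted, among them the Notch target genes Hes1 (15.6, 79.3 and 181) and Hes5 (51.4, 213 and 317). Jag1, a Notch ligand, was V1-enriched at 114, 38.4 and 48.8 (list median -1.003). Neurod1, a neurogenic factor, was also V1-enriched, at 1140 in V1, 238 in V2a and 153 in V3.

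Several markers of cells outside the neural lineage were V1-depleted too, but V2a and V3 were not always in the same order. Blood and endothelial sums were higher in V2a than in V3, whereas cell cycle and mesenchyme sums were higher in V3. Progenitor sums were nearly equal in the 2 libraries (8424 in V2a and 8342 in V3). Of 10 blood entries with a signal of 10, 7 were V1-depleted, including both Hba-a2 entries (0 in V1, 195 and 102 in V2a, and 131 and 28.6 in V3), whose reads cannot be told apart from those of Hba-a1. Of 6 endothelial markers 5 were V1-depleted, and of 13 mesenchyme markers 6 were, with Col3a1 at 2.23, 85.5 and 312. The part of more or less complete sorting, and of the age of the cells, in the cell cycle and progenitor differences was not tested. Among 12 genes that tissue dissociation induces, Hspa1a (90.8, 23.3 and 21.8) and Jun (2170, 896 and 669) were V1-enriched and none was V1-depleted (median 0.89).

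The called genes were then read in the other libraries of the study, in which the V1 value again enters every difference. Of the 477 V1-enriched entries, 174 (36.5%) were at least 2-fold higher in V1 than in every wild-type motoneuron library, against 3.36% of all 13869 entries, and 18 were at least 2-fold lower than in every one. Of the 558 V1-depleted entries, 166 (29.7%) were at least 2-fold lower in V1 than in every motoneuron library, against 5.75% of all entries. The stem cell libraries divided this set further: 388 (69.5%) were at least 2-fold lower in V1 than in both, against 20.7% of all. By this split 54 V1-depleted entries were below motoneurons only, 276 below stem cell progenitors only, 112 below both and 116 below neither. Medians of the V1-depleted entries were 8.63 in V1, 39.4 in V2a, 71.6 in V3, 21.4 in motoneurons (library mean), 186 in mES pMN and 158 in mES NP. V3 was above V2a in 447 of the 558.

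Neighbouring entries were counted because reads from bases that 2 overlapping genes share cannot be separated. On RefSeq positions of GRCm38.p6, found for 465 of the 477 entries, 38 pairs of V1-enriched entries lay within 50000 bases of each other and involved 64 entries (13.8%). At the same distance 94 of 542 V1-depleted entries (17.3%) lay in 61 pairs. The share was not counted for all entries, so neither figure shows that called genes cluster. In 14 of the 38 V1-enriched pairs and 5 of the 61 V1-depleted pairs the annotated spans of the genes, introns included, overlap. Whether their transcripts share bases, where reads could not be told apart, was not examined. The 14 include Gad1 with Gad1os, Slc32a1 with Gm14204 and Pax2 with 1700039E22Rik. V1-enriched pairs that do not overlap include Hoxd12 and Hoxd11 (1853 bases apart) and the homeobox genes Hmx3 and Hmx2 (2730). Hmx3 was 119 in V1, 3.18 in V2a and 1.68 in V3, and Hmx2 was 80.5, 3.25 and 2.76. The distance was chosen after values had been seen.

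Near the threshold the sets shaded into the other genes. Between nearer differences of 1 and 1.1 there were 69 V1-enriched and 63 V1-depleted entries, and just outside, from 0.9 to 1, there were 76 and 71. BC030500 (117, 58.2 and 34.4) was just inside and Txnip (110, 54.7 and 42.7) just outside on the enriched side. Ctsz (119, 239 and 349) was just inside and Slc12a7 (84.0, 168 and 372) just outside on the depleted side.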

How the data were processed

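Poly(A) RNA-seq values of 13 libraries were read from the deposited gene table (23523 entries) and transcript table (31702). The deposited signal is, by its values, scaled for transcript length and between libraries, and a gene's signal is the sum of its transcripts (100% within 0.1%). Per the submitters' processing notes, DESeq and bedtools were used and the builds mm9 and mm10 are named, with no roles; the aligner is not given in the sources used here. Scaffold names in the tables are those of mm10, so RefSeq positions on GRCm38.p6 were used (22494 entries matched by accession and chromosome). All columns were used or accounted for (0 unused).

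No test was possible with 1 library a type. Differences were taken on log2(signal + 1) with Python 3.11.15, pandas 2.3.3 and numpy 2.4.6, and figures were drawn with matplotlib 3.10.9. The code of the calls was run on simulated libraries with planted 4-fold changes and little noise. That run checks the code only and gives no error rate for the calls. Depth was estimated from the steps between low values: 73.1 to 75.0% of them lay within 0.1 of a whole multiple, against 20% by chance. It sets a counting floor only. Genes named were the first 15 in each direction by the smaller difference, the markers, called members of 30 lists and defining genes of V2a, V3 and motoneurons; others are named as chosen after their values were seen, as are list members not called. Results of some genes that the rule covers are not reported here. Members and lists were chosen with earlier results of these data known. Alternatives were other pseudocounts, minimums, folds, scalings, single contrasts and the transcript table. With nothing in the labels on separate cultures or animals, the spread between motoneuron libraries may be technical.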

Additional observations from a re-analysis of the deposited data

Results flagged for a closer look

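For the 38 individually ranked or defining genes, the 6 wild-type motoneuron libraries were searched for one standing far from the other 5. Such a library was found for 11 entries, and in 8 of them it was replicate 1. The limit used flags about 1 in 20 groups of independent normal values. That rate does not hold here, because many of the signals were near 0 and the entries are not independent of one another. Among V1-enriched genes, replicate 1 had a signal of 111 for Otp (next highest 30.03), 130 for Pax2 (41.7), 69.9 for Pax8 (26.3) and 52.5 for Gad2 (19.8). Among genes of V2a and V3, the same replicate had 30.6 for Shox2 (3.97) and 41.9 for Olig3 (15.04). It also had 78.6 and 12.9 for the 2 Hba-a2 entries, which were at 0 in the other 5. Replicate 1 thus held more of these interneuron genes of all 3 types and of a globin than any other motoneuron library, at levels below those of the type that defines each gene. Replicate 3 was highest for the histone genes Hist1h4k (22.8, next 7.86) and Hist1h2ah (206, next 51.3), and replicate 5 was lowest for Lhx4 (415, next 581).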

How the results depend on the processing

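The 477 V1-enriched and 558 V1-depleted entries became 294 and 356 with a pseudocount of 10, 840 and 995 with a minimum of 1, 257 and 227 with a minimum of 50, 145 and 213 at 4-fold, and 979 and 1017 at 1.5-fold. Against V2a alone 755 entries were higher in V1, and against V3 alone 939 were higher and 1426 lower. Counts stayed within 1.5 times with a pseudocount of 0.1 (504 and 583), with libraries rescaled by median ratio (476 and 555) or to equal total signal (537 and 512), and in the transcript table (497 and 609, of which 455 and 525 were the same entries). Other pseudocounts and single contrasts cannot change the sign of a called difference, and rescaling factors of 0.966 to 1.02 were too small to do so. Among the settings run for named calls, only the transcript table could therefore have reversed one. None of the 176 named calls reversed. Of these, 150 held with a pseudocount of 10, where genes including Aurka, Cck, Cdh9, Chrm2, Dcn, Dll3, Hba-a1, Hoxb13, Hoxd1, Irx3, Kcna6, Kcnab1, Kcnc4, Kcnf1, Kcnh1, Kcnip4, Kcnk1, Neurod4, Nkx2-2, Olig1, Pcdh15, Pdgfrb, Plk1, Pou4f1 and Prrx1 were lost, and 172 with equal totals, where Dll3, Irx3, Plk1 and Pou4f1 were lost. A total of 171 held in the transcript table, where Cntnap2, Gria1, Kcnip4, Pdgfrb and Vamp1 were lost. Leaving out each motoneuron library in turn, added after seeing the data, gave 176 to 188 V1-enriched entries above every remaining one (174 with all) and 167 to 178 V1-depleted entries below (166). No paired analysis was possible because the result comes from no test, with 1 library a type. One library a type also means that a difference of cell type, of dissection and of sorting cannot be told apart, and in a transcript of 2000 bases a signal of 1.70 in V1 rests on 3 reads.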

Other observations

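Other genes stood out once the values had been seen, and they are given as values only. Lamp5, a membrane protein of GABAergic terminals, was among the most abundant V1-enriched genes, at 5537 in V1, 499 in V2a and 102 in V3, with 148 to 450 in motoneurons. Neurod6 and Neurod2, neurogenic factors related to Neurod1, were V1-enriched too: Neurod6 was 1234, 78.2 and 31.0, and Neurod2 was 706, 98.3 and 198. Nfib and Nfix, nuclear factor I genes that rise late in spinal neurogenesis, were 605, 63.6 and 58.5, and 110, 14.5 and 14.3. Mab21l2 was 4768 in V1, 1328 in V2a and 74.9 in V3. The serotonin receptors Htr1b (20.4, with V2a and V3 listed at 0), Htr2c (21.4, 0.686 and 0.727) and Htr1a (16.8, 1.47 and 0.259) were low but V1-enriched.

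A pair of neurofilament genes and a synuclein were V1-depleted and highest in motoneurons. Nefl, the light neurofilament, was 992 in V1, 5756 in V2a and 12011 in V3, with 31957 to 51312 in motoneurons, and Nefm, the medium one, was 777, 4293 and 4622, with 31261 to 37015. Sncg, gamma-synuclein, was 338, 3659 and 6468, with 12700 to 22027. V1 was thus the lowest and motoneurons the highest for these 3 genes. Other neurofilament genes were not called: Nefh was 38.7, 62.6 and 42.1, with 209 to 334 in motoneurons, and Ina was 11935, 11712 and 9542, with 12815 to 20649 in motoneurons. The transcription factors Pou3f1 (58.1, 1113 and 913) and Meis1 (348, 1973 and 1549) and the growth factor Bmp7 (11.4, 275 and 258) were also V1-depleted.

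Transcript use was compared within genes. Of 2205 genes with several transcripts and a gene signal of at least 100 in each of the 3 libraries, 34 had a transcript whose share of the gene differed in V1 by at least 30 percentage points from both others, a limit chosen after values had been seen. In 22 of the 34 the share also ranged over 30 points or more among the 6 motoneuron libraries, and 3 of the 34 were called at gene level, against 31 of the 2205 (1.41%). Transcript NM_009684 of Apaf1, the apoptosome scaffold, held 12.2% in V1, 52.4% in V2a and 58.3% in V3, with 51.0 to 74.2% in motoneurons. NM_001176528 of Rara, a retinoic acid receptor, held 32.0%, 71.5% and 76.4%, with 39.4 to 58.3% in motoneurons. Both V1 shares lay below all 6 motoneuron libraries.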
